A study of Arabidopsis thaliana with 3 samples.

Results

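The genes described here carry the Gene Ontology (GO) annotation for a structural constituent of the ribosome. They were taken from the GO text beside each gene in the authors' annotated GRF5 peak lists for Arabidopsis thaliana, and 295 of the 21225 nuclear genes with any GO annotation in those lists carried the term. The other 20930 GO-annotated genes served as the background. Genes enter the lists through a peak, so every gene counted had at least 1 peak in at least 1 list, and a ribosomal gene with no peak at all is not among the 295. Of the 50 nuclear protein-coding genes whose RefSeq symbol starts with RPL, RPS or RPP, 41 (82%) were in the lists, beside 78.8% of all 27444 nuclear protein-coding genes. The term is broader than ribosomal proteins: the lists name a ribosomal protein family from KEGG, a pathway database, for 242 of the 295 genes and none for 53. Some of those 53 are described as something else, such as AT2G34210 and GTA2 (AT4G08350), which are Spt5-type transcription elongation factors, and ATPQ (AT3G52300), an ATP synthase subunit.

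GRF5 belongs to the GROWTH-REGULATING FACTOR family of plant transcription factors and is known for promoting cell proliferation in leaves. It was profiled by DAP-seq, in which purified protein is mixed with sheared genomic DNA in the test tube and the bound fragments are recovered and sequenced. The 2 GRF5 libraries, replicates 1 and 2, used recombinant His-tagged GRF5 from Escherichia coli, an antibody against GRF5 and root DNA of wild-type Col-0 seedlings moved at 7 days of age to 0.2 mM nitrate for 3 days, and each was compared by the authors with the same 1 input library, labelled as the control. The DNA had been purified, so a peak is DNA recovered in the test tube, not a site occupied in roots, and a pull-down without GRF5 was not used here; the series' design text speaks of chromatin immunoprecipitation, while library titles and protocols give DAP-seq, which was taken as the assay. Replicate 1 had 28349 nuclear peaks with a median summit pileup of 85 fragments, and replicate 2 had 27054 with 81; the total reads per library were not used here.

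A ribosome has a large subunit, which forms peptide bonds, and a small subunit, which reads the messenger RNA. In plants the cytosolic ribosome is built from proteins that are mostly encoded by small families of near-identical nuclear genes, while plastids and mitochondria have their own bacterial-type ribosomes whose proteins are partly encoded in the nucleus. Ribosomal protein genes are among the most strongly transcribed genes of dividing cells, and mutants of several of them have pointed leaves or altered leaf polarity in Arabidopsis. The lists name no chloroplast or mitochondrial gene with the term, so all values below concern nuclear genes.

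GRF5 peaks lay in the promoters of ribosome structural genes about as often as in those of other genes, and with the same median strength. A peak annotated to the promoter of the same gene and shared by both replicates was present for 125 of the 295 ribosome structural genes (42.4%), against 9390 of the 20930 other GO-annotated genes (44.9%). Sharing required an overlap of 50% of the shorter peak or more. None of the 125 genes reached a mean fold enrichment of 3 at the promoter, against 141 of the 9390 other genes (1.5%). A mean of at least 2 was reached by 40 of 125 (32.0%), against 3287 of 9390 (35%). Fold enrichment was computed by the authors' peak caller as the pileup of fragments at a summit relative to a background estimated from the input. With a single group of 2 libraries and a shared input there is no test over samples, so the counts are given as descriptions beside the background.

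In any region of the gene, promoter or body, 184 ribosome structural genes (62.4%) had a shared peak, against 14446 of the other genes (69%). Of the remaining 111, 26 had peaks in both lists but none shared (8.81%, against 6.44% of other genes). Another 49 had peaks in replicate 1 alone (16.6%, against 13.5%) and 36 in replicate 2 alone (12.2%, against 11.0%). Of the 184, 59 had a shared peak but none that both lists placed in the promoter (20% of the 295, against 24.2%). In 51 of the 59 a shared peak was annotated to the gene's promoter in neither list, and in 8 every shared peak was annotated to it in 1 list alone. In the single lists, replicate 1 had promoter peaks for 194 ribosome structural genes (65.8%, against 64.1% of other genes), and replicate 2 had them for 171 (58.0%, against 61.1%). The ribosome structural genes were thus above the others in replicate 1 and below them in replicate 2. Both lists held a promoter peak for 138 of the genes, and 13 of these had no shared peak that both lists placed in the promoter.

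The strength of the promoter peaks was nearly the same in both sets of genes. The median mean fold enrichment of a gene's strongest shared promoter peak was 1.90 in ribosome structural genes (interquartile range 1.75 to 2.04, range 1.42 to 2.86), against 1.90 in the other genes (1.75 to 2.08, range 1.35 to 10.7). By replicate, the medians were 1.89 and 1.90 in ribosome structural genes, against 1.90 and 1.91 in the others. The strongest 10% of all GO-annotated genes began at 2.31-fold and held 9 of the 125 (7.2%), against 10.1% of the other genes. The weakest 10% ended at 1.65-fold and held 10 of the 125 (8.0%), against 942 of the 9390. The distributions thus ran together, and 0 of 125 genes at 3-fold is near the background share of 1.5%.

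**Figure D1:**
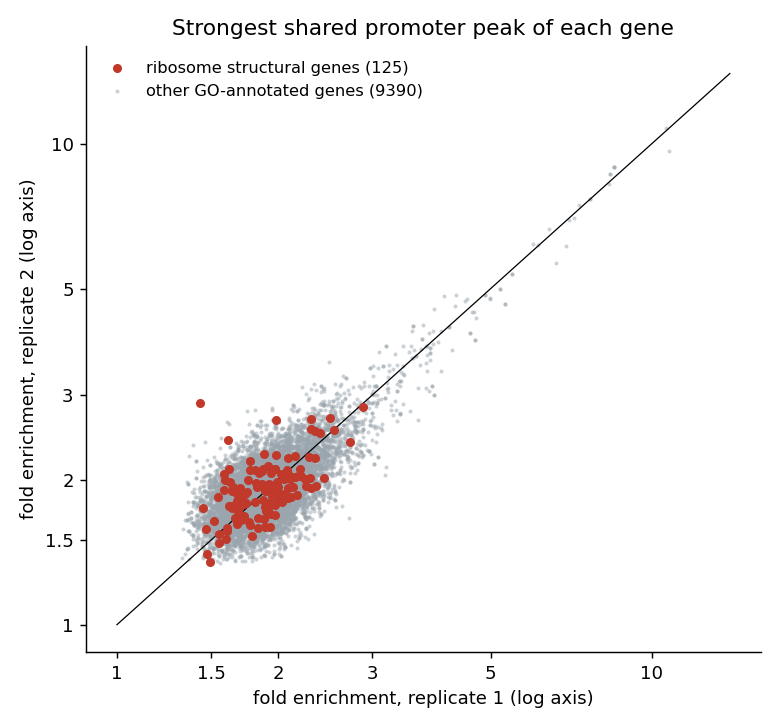
Fold enrichment of each gene's strongest shared promoter peak in replicate 1 (horizontal, log axis) and replicate 2 (vertical, log axis); each point is a gene, large dark points are the 125 ribosome structural genes and small pale points the 9390 other GO-annotated genes. The ribosome structural genes have means of 1.42 to 2.86, and none lies among the strong sites that reach 10.7. EMB3010, at 1.43- and 2.89-fold, lies further from the diagonal than any other gene shown.

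**Figure D2:**
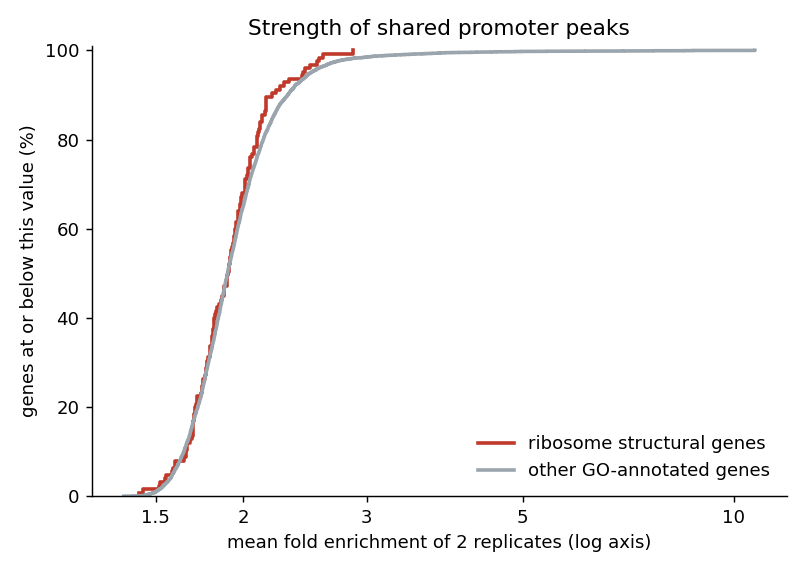
Share of genes (vertical, percent) whose strongest shared promoter peak is at or below the mean fold enrichment on the horizontal log axis, for the 125 ribosome structural genes and the 9390 others. The curves cross 50% at the same place, 1.90-fold, and that of the ribosome structural genes ends at 2.86.

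The 20 strongest promoter peaks, with means of 2.12 to 2.86, belonged to 18 cytosolic ribosomal protein genes, 1 plastid gene and 1 gene whose compartment the annotation leaves unclear; 11 encode proteins of the large subunit and 9 of the small subunit. In 17 of the 20 both replicates were at least 2-fold. Coordinates are 1-based on TAIR10 and are the bounds of the peak in replicate 1.

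Among small-subunit genes, AT2G05220, a gene of protein S17e, carried the highest promoter value, 2.89-fold in replicate 1 and 2.84-fold in replicate 2, on chromosome 2 from 1896600 to 1896981. The summit pileups there were 113 and 103 fragments, and no other gene was annotated to the peak. Even this value lay at only the 98.2nd percentile of shared promoter peaks of GO-annotated genes. AT3G04920, a gene of protein S24e, followed with 2.73- and 2.4-fold on chromosome 3 from 1358982 to 1359311, again with no other gene under the peak. AT2G32060, a gene of S12e, had 2.31- and 2.68-fold on chromosome 2 from 13641750 to 13643745, a long peak that also covered coding sequence of its neighbour PUR ALPHA-1. The other S12e gene, AT1G15930, had 1.92- and 1.96-fold. Both S12e genes thus had shared promoter peaks, and the values of AT2G32060 were the higher ones in both libraries.

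The remaining small-subunit genes among the 20 had lower means. AT5G63070 (S15e) had 1.99- and 2.66-fold, with summits 718 bp apart in the 2 libraries, so the peaks overlapped without pointing to the same site. AT3G44010 (S29e) had 2.35- and 2.22-fold and AT3G56340 (S26e) 2.43- and 2.02-fold. P40 (AT1G72370) encodes protein SAe, the plant homologue of the laminin receptor precursor, and had 2.09- and 2.22-fold; its paralogue RPSAb had 1.93- and 1.59-fold. ATARCA (AT1G18080) encodes RACK1A, a WD-repeat scaffold bound to the small subunit, and had 2.21- and 2.04-fold in a peak that also lies in the promoter of MIR159b. Its paralogue RACK1B_AT had 1.84- and 1.59-fold.

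EMB3010 (AT5G10360) was the least repeatable of these. It encodes S6e, the ribosomal protein phosphorylated downstream of the TOR kinase, and its promoter was enriched 1.43-fold in replicate 1 and 2.89-fold in replicate 2. The pileups were 58 and 74 fragments, the −log10 q values 1.52 and 12.5, and the summits lay 225 bp apart. The value of 2.89 thus rested on replicate 2. The second S6e gene, RPS6 (AT4G31700), had 1.99- and 1.87-fold, which differed less between the libraries.

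Among large-subunit genes, AT2G01250, a gene of protein L7e, was highest with 2.50- and 2.69-fold on chromosome 2 from 134636 to 135583; the peak also covered coding sequence of AT2G01260. AT3G06680 (L29e) had 2.4- and 2.51-fold on chromosome 3 from 2116640 to 2117542, and its paralogue AT3G06700 had 2.18- and 2.04-fold. AT2G40205, a gene of L41e, a very short peptide of the ribosome, had 2.35- and 2.52-fold on chromosome 2 from 16792534 to 16793190, with no other gene under the peak. These genes were above 2-fold in both libraries, so each of their calls held in either one.

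PGY2 (AT1G33140) encodes L9e and is 1 of the PIGGYBACK genes, whose mutants enhance the leaf polarity defects of asymmetric leaves1. Its promoter peak on chromosome 1 from 12020623 to 12021452 was enriched 2.30-fold in replicate 1 and 2.55-fold in replicate 2, with summits 4 bp apart and no other gene annotated. The other L9e gene, AT4G10450, had 2.05- and 2.01-fold. PGY1 (AT2G27530), a gene of L10Ae, had no shared promoter peak but an exonic and intronic one, at 2.35- and 2.42-fold. Each list held a promoter peak for PGY1, but no shared peak was placed in its promoter by both lists. ATL5, a gene of L5e, which binds the 5S ribosomal RNA and is known as PIGGYBACK3, had 1.92- and 1.74-fold at its promoter. These PIGGYBACK genes thus had shared peaks, in the promoter for PGY2 and ATL5 and in the gene body for PGY1. A shared peak in any region was present for 62.4% of all ribosome structural genes and 69% of other genes. RPL5B, the paralogue of ATL5, had peaks in replicate 1 alone. ATL5 was picked for description after its values were seen.

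Further large-subunit genes among the 20 were AT3G06040 (L7/L12, compartment unclear) with 2.28- and 2.23-fold over the body of PRXIIF, and AT3G28900 (L34e) with 2.15- and 2.24-fold. AT1G09690 (L21e) had 2.29- and 2.02-fold over the body of HYL1, AT1G08360 (L10Ae) 2.36- and 1.94-fold, and AT3G59540 (L38e) 2.24- and 2.01-fold. AT3G44590, also among the 20, is given below. The plastid gene emb2394 (AT1G05190), which encodes the plastid ribosomal protein L6 and is needed for embryo development, had 2.55- and 2.54-fold on chromosome 1 from 1504806 to 1505507. That peak also lay in an intron and the promoter of GLR3.4, a glutamate receptor-like gene. Of the 20 peaks, 16 were annotated to at least 1 further gene and 11 to the body of one.

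The acidic stalk of the large subunit, which recruits translation factors, is formed by P0, P1 and P2. At the promoter, 4 of the 5 P2 genes had a shared peak, the highest being AT3G44590 with 2.2- and 2.11-fold, followed by AT3G28500 with 2.09- and 1.92-fold, AT2G27710 with 1.98- and 1.77-fold and AT2G27720 with 1.61- and 1.56-fold. The fifth, AT5G40040, had a promoter peak in each list, but these were not shared. Of the 4 P1 genes only AT5G47700 had a shared promoter peak, at 1.64- and 1.75-fold. Neither of the 2 P0 genes had one, but AT2G40010 had a body peak. These families were chosen for description after their values were seen.

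At the low end, AT5G15520, a gene of S19e, had 1.49- and 1.35-fold with −log10 q values of 2.68 and 1.40. AT3G12370 (L10) had 1.47- and 1.40-fold and AT3G26360 (S21) 1.55- and 1.48-fold. The first of these peaks lies over the body of BCCP2 and the second over that of ARP5.

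Outside its own promoter, a single ribosome structural gene had a shared peak above 3-fold. AT4G23620, annotated to a bacterial-type L25 family, had 3.74-fold in replicate 1 and 4.19-fold in replicate 2 over its coding exons and introns, on chromosome 4 from 12314805 to 12315756. The pileups were 171 and 180 fragments and the summits fell on the same base. The peak is also annotated to the promoter of BTI1, a reticulon-like membrane protein gene, and of AT4G07165. With its mean of 3.96, it was the highest shared peak of the 184 ribosome structural genes in any region, against a highest mean of 12.9 and 356 genes of at least 3-fold among the other GO-annotated genes. The median over all regions was 1.90, against 1.92.

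The next body peaks were lower. AT2G40010, the stalk P0 gene named above, had 2.80- and 2.51-fold on chromosome 2 from 16708216 to 16708751, and AT5G39850, a gene of S9e, had 2.51- and 2.44-fold within an intron on chromosome 5 from 15950097 to 15950403. AT4G14320 (L44e) had 2.44- and 2.46-fold within an intron on chromosome 4 from 8242080 to 8242669. RPL3B (AT1G61580), a gene of L3, which lies close to the peptidyl transferase centre, had 2.44- and 2.24-fold on chromosome 1 from 22721738 to 22722674, with summits 252 bp apart. RPL23AB (AT3G55280) had 2.29- and 2.34-fold, AT5G27770 (L22e) 2.2- and 2.26-fold, AT2G34210 2.04- and 2.28-fold and AT4G13170 (L13Ae) 1.97- and 2.35-fold. Together with PGY1 and AT4G23620 these are the 10 highest peaks outside the gene's own promoter. As with AT4G23620, both lists also placed the peaks of AT4G14320, RPL23AB and AT2G34210 in the promoters of other genes. All 10 touched an intron and 7 also coding exons. AT4G14320, RPL23AB and AT5G27770 had a shared promoter peak as well. That of AT4G14320 had summits 1174 bp apart in the 2 libraries.

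Shared peaks of ribosome structural genes touched coding sequence less often than those of other GO-annotated genes. Of 230 links between a shared peak and a ribosome structural gene, 138 were to the promoter (60%, against 51.7% of 20218 links of other genes), 82 to coding exons (35.7%, against 47.0%) and 99 to introns (43.0%, against 42.2%). In the single lists, 128 of the 295 genes had a peak over their coding exons in replicate 1 (43.4%, against 52.5%) and 131 in replicate 2 (44.4%, against 50.2%). The lower share over coding sequence thus stood in both libraries against the GO-annotated background. It did not stand against all other nuclear genes in the lists, of which 41.3% in replicate 1 and 39.4% in replicate 2 had such a peak. The promoter share is one of links, and per gene a shared promoter peak was no more frequent in ribosome structural genes (42.4%, against 44.9%). Most genes had a single shared peak, 142 of 184 (77.2%, against 69.0%), and 39 had 2 (21.2%, against 24.3%). AT1G08360 and RPL23AB had 3, and AT5G56940, a gene of S16, had 4. Gene lengths were not used here, so the part of gene length in these shares was not tested.

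The strongest shared promoter peak of a ribosome structural gene was more often a peak that also covered a neighbour, counting a further gene or region where both lists annotated it. In 81 of the 125 genes (64.8%) it was annotated to the body of another gene, against 4445 of 9390 (47.3%), and in 71 (56.8%) to the promoter of another gene, against 43.9%. It touched the gene's own body in 11 (8.8%), against 9.14%. In 11 genes (8.8%) it was annotated to that promoter and nothing else, against 2341 (24.9%). A stricter count took any shared promoter peak of a gene and left it out where either list alone annotated a gene body. It left 31 ribosome structural genes (10.5% of 295), against 17.6% of the others. Leaving out peaks that either list placed in the promoter of another gene left 53 (18.0%), against 24.7%. Most promoter calls of ribosome structural genes therefore cannot be assigned to that gene alone, and the part of gene spacing was not tested.

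In 4 genes the peak lay in the promoters of a pair of ribosome structural genes. RPL12-B and RPL12-C, plastid L12 genes, shared a peak on chromosome 3 from 10322419 to 10323059 with 1.98- and 2.11-fold. AT4G29410 and rps15ae shared a peak on chromosome 4 from 14470556 to 14471083 with 2.15- and 2.03-fold. The 125 genes therefore rest on 123 peaks.

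**Figure D3:**
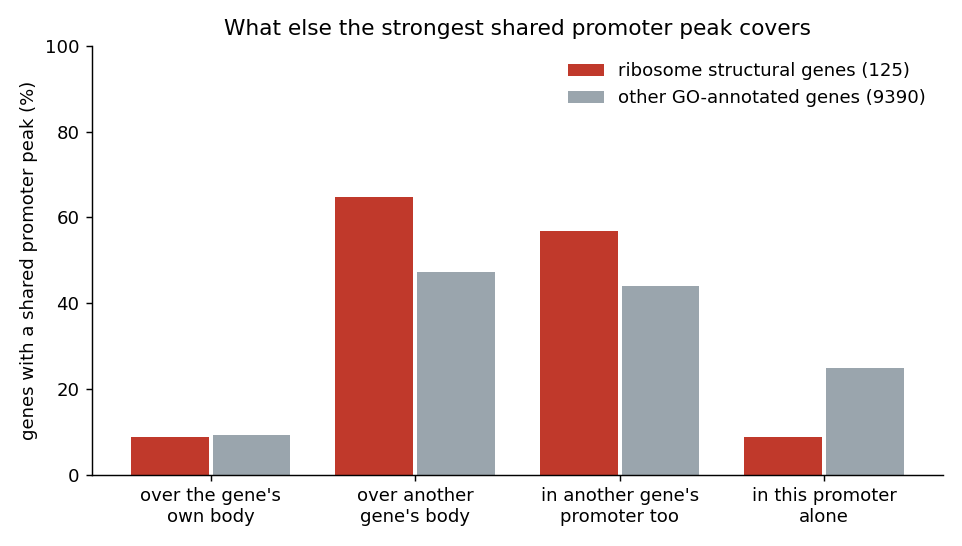
Share of genes with a shared promoter peak (vertical, percent) whose strongest such peak is also annotated to the gene's own body, to another gene's body, to another gene's promoter, or to no further feature; bars stand for the 125 ribosome structural genes and the 9390 other GO-annotated genes. Another gene's body is under the peak in 64.8%, against 47.3%, and the promoter alone in 8.8%, against 24.9%.

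By compartment, the shares with a shared promoter peak lay between 30.4% and 47.4%. Of 195 cytosolic genes, 84 had one (43.1%) with a median fold enrichment of 1.92. Of 39 mitochondrial genes, 16 had one (41.0%, median 1.85), of 23 plastid genes 7 (30.4%, median 1.99), and of 38 genes with an unclear compartment 18 (47.4%, median 1.77). In any region the shares were 64.6%, 59.0%, 47.8% and 63.2% in the same order. The genes classed as plastid had the lowest share in both measures, but their promoter calls differed between the libraries: 18 of 23 (78.3%) were called at the promoter in replicate 1 and 10 (43.5%) in replicate 2. In replicate 1 alone, then, the plastid genes had a higher share than the 65.8% of all ribosome structural genes. The classes follow annotation text, and the plastid class may be incomplete. The cytosolic class held 8 genes of bacterial-type KEGG families, such as PRPL11, and 3 of the 8 had a shared promoter peak. Further genes of bacterial-type families fell in the unclear class, which had the highest promoter share. The low plastid share therefore holds only for the classes as annotated.

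After emb2394 and the RPL12 pair, the plastid genes with a promoter peak included AT1G64510 (S6) with 1.98- and 1.86-fold, over the body of RPN12a, and PSRP6, a plastid-specific ribosomal protein, with 1.68- and 1.64-fold. Among mitochondrial genes RPS10 (AT3G22300) had 2.03- and 2.06-fold, AT5G39800 1.78- and 2.19-fold, AT5G55140 (L30) 1.97- and 1.92-fold, RPS19 (AT5G47320) 1.82- and 1.97-fold and AT1G77750 (S13) 1.92- and 1.89-fold. PRPL28 (AT2G33450), with 1.95- and 1.93-fold, was put in the mitochondrial class by its GO text although its symbol is that of a plastid protein. RPL4 (AT1G07320), of unclear compartment, had 2.26- and 1.95-fold, and PSRP3/1 had 1.98- and 2.25-fold. None of these organellar or unclear genes other than emb2394 and AT3G06040 was among the 20 highest.

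By subunit, 76 of 168 large-subunit genes (45.2%) had a shared promoter peak, with a median of 1.95, and 39 of 94 small-subunit genes (41.5%), with a median of 1.88. Within the cytosolic class the large subunit had 54 of 116 (46.6%) and the small subunit 28 of 71 (39.4%). In the single lists, 70.7% (replicate 1) and 62.9% (replicate 2) of cytosolic large-subunit genes were called at the promoter, and 59.2% and 57.7% of cytosolic small-subunit genes. The large subunit had the higher share in both libraries, and in each library its share was above that of the other GO-annotated genes while that of the small subunit was below it. The difference between subunits has no test here, since genes are not replicates.

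**Figure D4:**
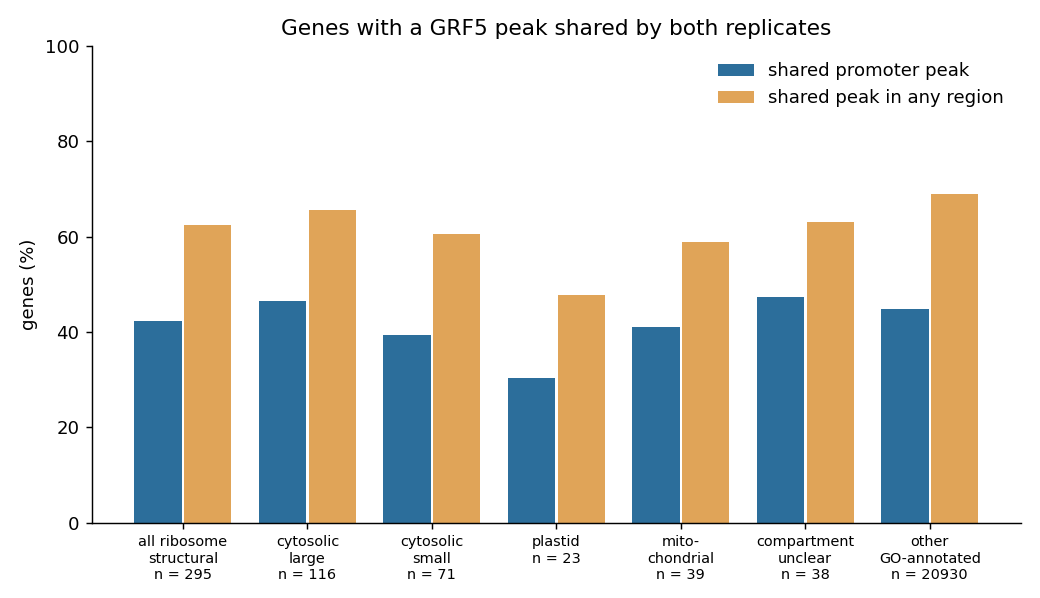
Share of genes (vertical, percent) with a GRF5 peak shared by both replicates, in the promoter or in any region, for all ribosome structural genes, their compartments and cytosolic subunits, and the other GO-annotated genes. Promoter shares run from 30.4% in the 23 genes that annotation text classed as plastid to 47.4% in the 38 genes of unclear compartment, beside 44.9% of other genes.

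The KEGG labels placed 181 cytosolic genes in 83 families, 59 of which held at least 2 genes in the lists. In 8 of the 59 every gene had a shared promoter peak, in 15 none had, and in 36 some had and others had not. No background of other families was computed, and with 43.1% of cytosolic genes called, mixed families can follow from that share alone, so nothing about paralogues is read from the split. Where at least 2 genes of a family had one, which was so in 17 families, the highest mean fold enrichment was 1.16 times the lowest at the median, and between 1.03 and 1.42 times. All ribosome structural genes with such a peak had an interquartile range of 1.75 to 2.04, which is a different measure. No such ratio was computed for genes of different families, so nothing about families is read from these ratios. Reads from near-identical paralogues may be placed at either copy, and how the authors treated such reads is not given in the sources used here, so values of single paralogues are uncertain.

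Genes with mutants of known phenotype fell on both sides of the call. SAC52, a gene of L10e known from suppression of the dwarf acaulis5 mutant, had a shared promoter peak of 1.89- and 1.76-fold, while its paralogue RPL10B had peaks in replicate 1 alone. RPS5A, a gene of S5e needed for early embryo divisions, had 1.98- and 1.69-fold, while RPS5B had none shared. STV1, a gene of L24e known for translation reinitiation in gynoecium patterning, had a shared peak that replicate 1 alone placed in its promoter. No L24e gene of 3 had a shared promoter peak. UBQ1, which encodes ubiquitin fused to L40e, had 2.08- and 2.10-fold, and the other L40e gene, AT2G36170, 1.87- and 1.96-fold. Both lists also annotated these peaks to coding exons and introns of S14e genes, AT3G52580 and AT2G36160 in the same order. In L21e, 3 of 4 genes had a shared promoter peak. In L35e, S16e, S20e and S2e no gene had a shared peak in any region. These families were likewise picked after their values were seen.

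**Figure D5:**
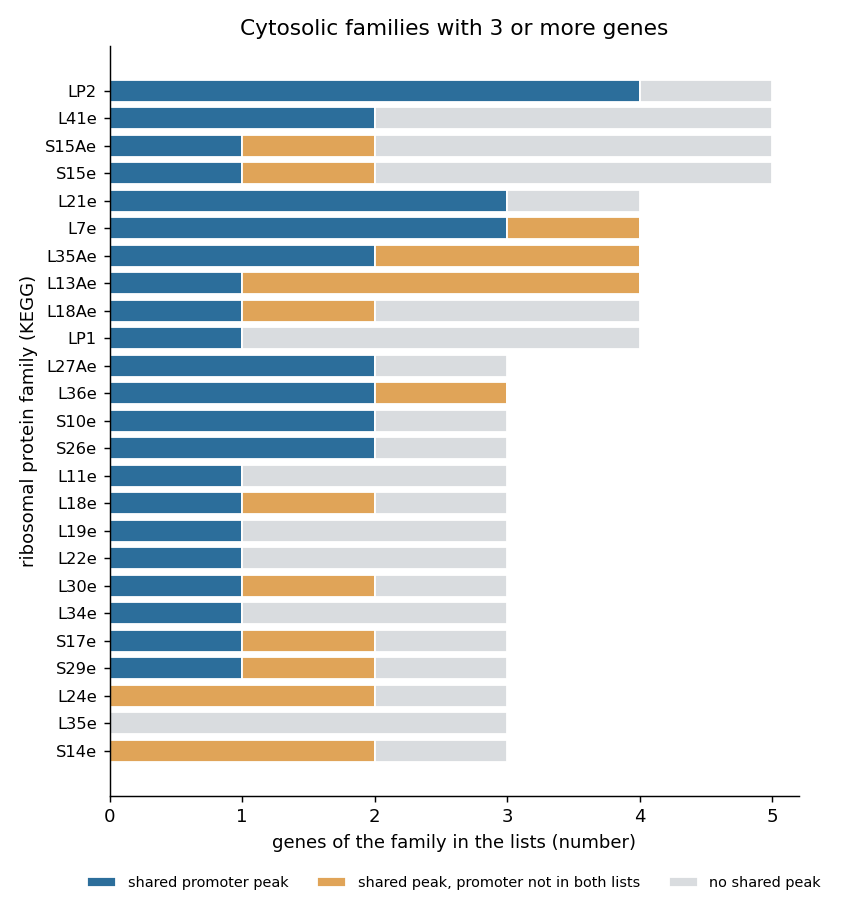
Number of genes (horizontal) in each of the 25 cytosolic ribosomal protein families with at least 3 genes in the lists, divided into genes with a shared promoter peak, with a shared peak that is not in the promoter in both lists, and with no shared peak. Most bars are mixed; the P2 family has 4 of 5 genes with a shared promoter peak, and the L35e family has no gene with a shared peak.

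Whether the replicates differed more or less at promoters of ribosome structural genes than at those of other genes depended on the measure. Over the 125 genes, the log2 ratio of replicate 1 to replicate 2 had a mean of -0.02 and an SD of 0.19, against -0.01 and 0.19 for the other genes. The lowest log2 ratio was that of EMB3010, -1.02, beyond the lowest of the other genes, -0.77. The SD without EMB3010 was not computed. The values were more than 1.25-fold apart in 6 genes (4.8%), against 798 (8.50%). All 6 were higher in replicate 2: EMB3010 and AT5G63070, given above, AT5G09770 with 1.61- and 2.42-fold, AT3G13580 with 1.62- and 2.11-fold, AT5G27770 with 1.58- and 2.05-fold and AT4G34670 with 1.59- and 2.00-fold. Summits lay a median of 70 bp apart, against 51 bp, and within 100 bp in 76 genes (60.8%), against 66.2%. Of all 368 peaks of ribosome structural genes in replicate 1, 66.6% overlapped a peak of replicate 2, against 68.4% for peaks of other genes, and of the 349 in replicate 2 67.3% overlapped one of replicate 1, against 72.0%. Peaks of ribosome structural genes had median pileups of 85 and 81 fragments, against 86 and 81, and median widths of 434 and 423 bp, against 433 and 426 bp. The input library was common to both peak calls, and its part in their overlap was not tested.

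The 295 genes lay on all 5 chromosomes, and the share with a shared promoter peak varied among them. It was 46.4% of 69 genes on chromosome 1, against 45.1% of other genes there, and 50.6% of 79 on chromosome 3, against 44.6%. On chromosomes 4 and 5 it was 41.2% of 34 and 40.9% of 66, against 45.6% and 44.0%. Chromosome 2 had the lowest share, 12 of 47 genes (25.5%), against 45.3%, although it carried AT2G05220 and AT2G01250, the genes with the highest promoter values. This split was looked at without a planned comparison and has no test.

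Other gene lists of protein synthesis and turnover, formed by GO term with the ribosome structural genes left out, had promoter shares of 35.3% to 46.3%, beside the 44.9% of GO-annotated genes outside the ribosome. A shared promoter peak was present for 39 of 86 translation initiation factor genes (45.3%, median 1.88), 25 of 54 elongation factor genes (46.3%, median 1.87), 29 of 75 ribosome biogenesis genes (38.7%, median 1.81), 55 of 150 rRNA processing genes (36.7%, median 1.84), 18 of 51 aminoacyl-tRNA ligase genes (35.3%, median 1.82) and 23 of 61 proteasome genes (37.7%, median 1.89). The biogenesis and rRNA processing lists share 43 genes. In any region the shares ran from 64.8% of elongation factor genes to 90.2% of ligase genes, all above the 62.4% of ribosome structural genes.

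Only AT5G38650 of the genes named from those lists exceeded the ribosome structural promoters. It encodes the proteasome maturation factor UMP1 and had a promoter peak of 4.68- and 3.91-fold. AT1G36730, an initiation factor gene described as IF2/IF5, had 2.57- and 3.02-fold, AT5G10620, an rRNA-processing methyltransferase gene, 2.82- and 2.64-fold, and ALATS, which encodes alanyl-tRNA synthetase, 3.19- and 2.13-fold. In ribosome biogenesis the highest were AT5G27140, described as NOP56-like, with 2.34- and 2.38-fold, AT2G24990, a Rio1 kinase gene, with 2.04- and 2.38-fold, and NUC-L1, a nucleolin gene, with 1.97- and 2.35-fold. AT1G09640, a gene of the elongation factor EF1B gamma chain, and AT1G09620, a leucine-tRNA ligase gene, lie under the same peak, with 2.22- and 2.52-fold. Apart from AT5G38650, the means of these genes lay within the range of ribosome structural promoters, up to 2.86.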

How the data were processed

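Peak lists of 2 GRF5 DAP-seq libraries, each called against 1 shared input, were used as deposited. The authors used Trimmomatic 0.39, Bowtie2 2.4.6 and MACS2 2.2.7.1 and the genome build TAIR10, per the submitters' processing notes; the sources used here give neither peak-caller settings nor a promoter length. Per the file headers, columns of the deposited lists hold the summit pileup (a signal in fragments), the fold enrichment (a ratio to the input-based background), −log10 p and −log10 q (p-value and q-value), positions and, for each peak, every annotated gene and region with GO and KEGG text. The depth is known only through the pileup, so no interval is given. The labels call the libraries biological replicates without saying what was prepared separately, so their spread may be technical.

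Peaks were paired one to one at an overlap of at least 50% of the shorter peak (19008 pairs), a step checked on simulated intervals. A shared peak counted for a gene's promoter when both lists annotated it there, and for any region when both lists annotated the gene. The strength of a gene is the mean of both fold enrichments at its strongest such peak. The members, lists and naming rules were chosen with earlier results of these data known. Genes were named from the 20 highest at promoters, the 10 highest outside the gene's own promoter, and the 3 lowest. Others came from the 3 highest of each compartment and subunit class and of each related list, not all of which are named. Genes picked otherwise are marked or stand beside the criterion or group they illustrate. The genes compared as paralogues of a named gene were also picked after their values were seen. Compartment came from specific ribosome terms in the GO text, then organelle terms, then KEGG family or description in the lists, because the RefSeq gene table (TAIR10.1, used only for symbols and gene types; all 295 genes matched) holds no descriptions. No sequence is shown, since promoter sequence was not used here. Tables were handled with pandas 2.3.3 and numpy 2.4.6 in Python 3.11.15, and plots drawn with matplotlib 3.10.9.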

Additional observations from a re-analysis of the deposited data

How the results depend on the processing

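The count of ribosome structural genes with a shared promoter peak, 125, was 128 at an overlap of 1 bp and 120 at 80%. It was 61 (20.7%, against 21.3% of other genes) with −log10 q of at least 5 in both lists, 25 (8.47%, against 10.7%) with at least 2-fold in both, 31 with peaks that neither list placed over a gene body, 53 with peaks of 1 promoter alone in both lists, and 171 to 194 with a single replicate. The difference to the other GO-annotated genes, -2.49 percentage points, was -7.10 with peaks over no gene body, -6.74 with peaks of 1 promoter alone and -3.84 against all other nuclear genes. It turned to 1.69 without replicate 2, and was -3.16 without replicate 1. It also turned to 0.18 when only the 242 genes with a KEGG family were kept (109 genes, 45.0%), an alternative chosen after seeing the data. Its direction therefore depends on the replicate and on how the genes are chosen. Without 8 genes of bacterial-type families, also chosen after seeing the data, the cytosolic class had 81 of 187 (43.3%). The count for any region, 184, was 91 at the q limit, 41 at 2-fold and 246 to 259 with a single replicate; its difference of -6.65 percentage points was -4.80, -4.29 and -3.07 to -1.20. The median fold enrichment of 1.90 was 1.81 with the lower of both values (others 1.80) and 1.81 to 1.87 with a single replicate (others 1.86 and 1.87). The matched share of peaks, 67.0%, was 70.4% at 1 bp (others 72.0%) and 63.2% at 80% (others 64.9%). The planned search for promoter motifs was not run, since no promoter sequence was used here. No paired analysis was possible because there is 1 group of 2 libraries and no second group to pair it with. The cause of these changes was not tested, beyond that stricter settings keep fewer peaks.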
